A study of Mus musculus with 25 samples.

Results

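The comparison of postnatal day 23 with postnatal day 17 in mouse back skin is described, which spans the passage of hair follicles from regression (catagen) to rest (telogen). Its members are the 3 arrays titled as day 23 and the 3 titled as day 17, taken by their titles, 6 of the 25 arrays in the study, with every probe set of the platform other than its controls. The study measured total RNA of whole back skin on short-oligonucleotide arrays at 8 ages. These are days 1, 6, 14, 17 and 23, then 9 weeks and 5 months with 3 arrays each, and 1 year with 4. Each array is labelled as a numbered mouse of 1 age. No treatment or genetic change is named for either group, and the sources used here do not give strain, sex, the hour of sampling or the hair phase seen in the skin. Age and hair phase change together between the groups and cannot be told apart. The labels name a separate mouse for each array, n counts arrays, and the labels' field for the lot of the arrays is empty, so that no batch could be set against age.

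A hair follicle alternates between growth, when matrix cells at its base divide and differentiate into the hair shaft and the inner root sheath that surrounds it, regression, when the lower follicle is lost, and rest, when a short follicle holds a finished club hair above a small dermal papilla. Wnt and Hedgehog signals accompany growth, while BMP signals are known both for shaft differentiation and for keeping resting stem cells quiet. The first such cycle of mice runs nearly in step across the back, and the fat layer under the dermis and the dermis itself change along with it.

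The 6 arrays grouped by age. Pearson correlation of log2 intensities was 0.962 to 0.965 among the arrays of day 17, 0.965 to 0.968 among those of day 23 and 0.824 to 0.854 between the ages. The deposited intensities share a trimmed mean of 500 units on all 25 arrays, and the array medians were 235 to 242 units on day 17 and 220 to 221 on day 23. As a measure of RNA integrity, Gapdh had a 3′ to 5′ ratio of 0.76 to 0.86 on day 17 and 0.87 to 0.9 on day 23, and Actb one of 1.07 to 1.2 and 1.03 to 1.19. All 3 arrays of day 17 held both the female marker Xist (684 to 897 units) and the male marker Eif2s3y (162 to 235 units), and the labels do not say whether RNA of more than 1 mouse was pooled on them, so "mouse" is used below only as the labels' name of an array. On day 23, mouse 1 held Xist alone (1347 units) and mice 2 and 3 Eif2s3y alone (311.6 and 443.3 units). The tissue label was met by high Krt10, Lor and Col1a1, whereas the probe sets of the basal keratins Krt5, Krt14 and Krt15 did not exceed 120.8, 27 and 8.5 units on these 6 arrays and were not used. The number of arrays limits the precision of every value given here.

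Of 8835 probe sets tested, 1917 were higher on day 23 (21.7%) and 1927 lower (21.8%; limma, Benjamini-Hochberg adjusted p under 0.05), 43.5% in all. The 3 arrays of one age lay wholly above the 3 of the other for 56.7% of probe sets. With 1 probe set per gene, 1544 of 6569 genes were higher (23.5%) and 1440 lower (21.9%), 45.4% in all, the ages did not overlap for 58.1% of genes, and the median gene changed by 0.011 on the log2 scale. Larger changes went mostly downward: of 227 called probe sets that changed at least 4-fold, 175 were lower on day 23 and 52 higher, and of those that changed at least 32-fold 39 were lower and 0 higher. With a covariate for arrays that hold both sex markers, called the sex-marker covariate below, 502 probe sets were higher and 563 lower. All 3 arrays of day 17 and no array of day 23 hold both markers, and within an age the covariate varies only on day 1. The day 1 arrays alone therefore set its effect, which widens the error of the contrast. Fewer calls under it need not mean smaller changes. Of 238 called genes with extracted values 132 kept direction and call under it, and 0 reversed. Shares of a list's genes called higher and lower are given below. They are to be read beside those of all genes (23.5% higher and 21.9% lower), also where these are not repeated. The counts under this covariate follow.

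**Figure D1:**
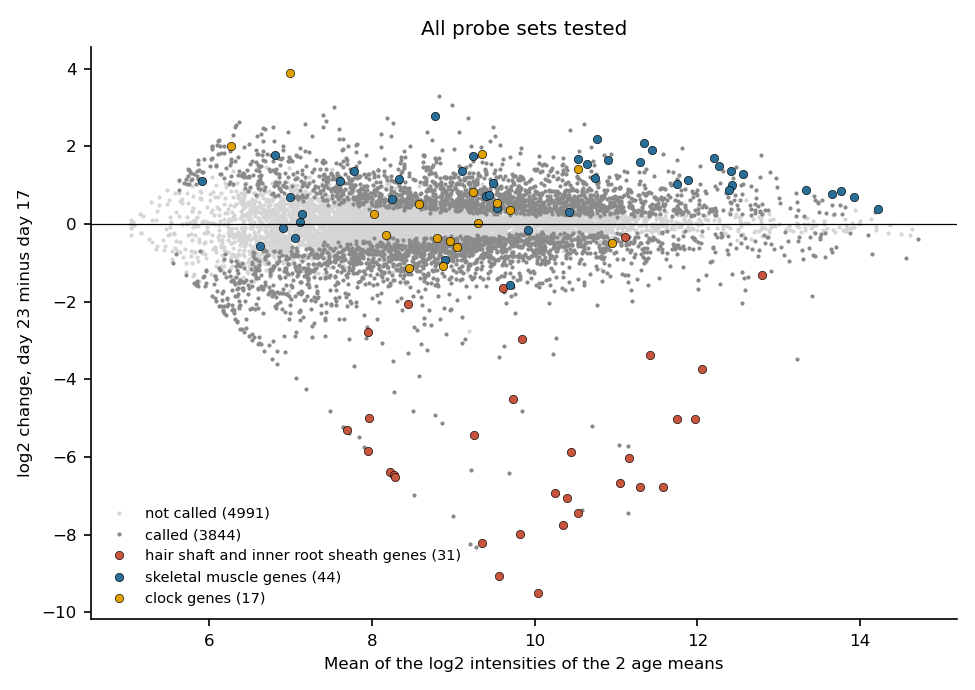
Log2 change from day 17 to day 23 (vertical axis) of the 8835 probe sets tested against the mean log2 intensity of both ages (horizontal axis), each point 1 probe set. The 31 hair shaft and inner root sheath genes lie below 0, most skeletal muscle genes above it, and Dbp, at a log2 change of 3.89, is the highest point.

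Hair shaft and inner root sheath genes fell furthest. All 21 hair shaft genes on the array were lower on day 23, as were all 10 inner root sheath genes, where 21.9% of all genes were lower. Under the sex-marker covariate 21 and 9 were lower. The median log2 change was -6.03 for the shaft list and -5.6 for the sheath list. Together these genes gave 4.12% to 4.34% of the summed intensity of the day 17 arrays and 0.157% to 0.167% on day 23. In bulk tissue, fewer cells of a type and less RNA per cell cannot be told apart, here or in any result below.

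Promoters of these genes are shown because the genes fell together. RefSeq windows of 300 bases around the annotated start (build GRCm38.p6) were at hand for 15 of the 21 shaft genes and all 10 sheath genes. The letters TATAAA, the core of the TATA box, stood on either strand in 13 of 15 shaft promoters (86.7%) and 5 of 10 sheath promoters (50%). They stood in 14.2% of all 27025 promoters searched, 1 per gene. The letters CTTTGAA, a form of the site bound by Lef1 and Tcf factors, stood in 5 of 15 (33.3%), 2 of 10 (20%) and 5.3% of all. These motifs were chosen after the changes were known, the windows of neighbouring family members can be alike, and a match is a description of the sequence. Windows of 3 genes are printed 5′ to 3′ on the strand of the gene, with both motifs in capitals. Krt25 lies at chr11:99322902-99323201 on the minus strand, Krt34 at chr11:100041505-100041804 on the minus strand and Krtap8-1 at chr16:89487903-89488202 on the minus strand.
Krt25: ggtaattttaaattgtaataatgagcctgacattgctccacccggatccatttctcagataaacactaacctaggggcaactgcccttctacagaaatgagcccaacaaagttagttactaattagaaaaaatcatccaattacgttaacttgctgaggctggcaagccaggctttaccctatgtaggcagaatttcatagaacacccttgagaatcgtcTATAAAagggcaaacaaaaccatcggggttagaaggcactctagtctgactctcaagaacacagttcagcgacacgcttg
Krt34: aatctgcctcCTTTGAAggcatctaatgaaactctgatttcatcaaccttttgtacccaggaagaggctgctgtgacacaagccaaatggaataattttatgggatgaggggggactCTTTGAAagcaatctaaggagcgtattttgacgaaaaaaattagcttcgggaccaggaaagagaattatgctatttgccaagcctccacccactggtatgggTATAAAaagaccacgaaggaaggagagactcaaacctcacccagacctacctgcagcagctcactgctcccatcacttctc
Krtap8-1: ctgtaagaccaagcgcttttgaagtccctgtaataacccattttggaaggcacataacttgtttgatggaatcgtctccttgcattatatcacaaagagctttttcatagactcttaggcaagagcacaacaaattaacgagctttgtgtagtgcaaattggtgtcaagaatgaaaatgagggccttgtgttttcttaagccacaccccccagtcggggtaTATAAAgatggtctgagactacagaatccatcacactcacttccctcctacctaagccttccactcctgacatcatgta
TATAAA stood at position -30 in Krt25, -31 in Krt34 and -29 in Krtap8-1, counted from the annotated start. Krt34 also held 2 copies of CTTTGAA, and the other two windows none.

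Krtap9-1, a keratin-associated protein that packs between the keratin filaments of the shaft, had one of the largest falls. It measured 30155, 30513 and 26090 units on the day 17 arrays and 46.4, 41.8 and 26.8 on the day 23 arrays. The ages were far apart, and the fitted log2 change was -9.5 ± 0.14 (SE; limma adjusted p = 7.13e-17), with 1 day 23 array raised to the floor of 32.7 units, so its size depends on that floor. Krt83, a type II hair keratin, had 10457, 12404 and 10987 units on day 17 and 42, 33.8 and 38.5 on day 23, a change of -8.21 ± 0.12. Krt34, a type I hair keratin, went from 15138, 13998 and 13836 units to 71.1, 21.8 and 78.7, and Krtap8-1 from 21194, 18811 and 18482 to 139, 104.4 and 96.4. Every array of day 17 was far above every array of day 23 for these genes. The other shaft genes ranged from Krtap6-2 at -7.75 ± 0.24 to Krtap13 at -1.64 ± 0.2. Krtap13 kept 375.7 to 512.1 units on day 23 and Krt84, a keratin of the shaft cuticle, 151.2 to 194.4. Keratin-associated proteins and hair keratins are families of close copies, so the split of signal between members is uncertain, but all 11 keratin-associated proteins and all 10 hair keratins tested fell.

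In the inner root sheath, the sleeve that moulds the growing shaft, Krt25 went from 18895, 17518 and 16309 units to 32.1, 11.4 and 31.2. Every day 23 value of Krt25 was below that floor, so day 23 was at least 536-fold lower. Krt71 measured 25578, 25737 and 27146 units and then 256.9, 196.4 and 265.8, and Krt27 22526, 21415 and 19463 units and then 258.6, 166.6 and 211.5. Both sheath keratins fell about as far as the shaft keratins, at -6.78 ± 0.11 and -6.66 ± 0.13. Padi3, which deiminates trichohyalin, was at least 91-fold lower, with 2789 to 3074 units on day 17 and 17 to 29.2 on day 23. Trichohyalin itself, Tchh, fell by 4.99 ± 0.15. Gata3, a transcription factor of the sheath that the rest of the skin also uses, fell least of the list, from 2301 to 2589 units to 1867 to 2110 (log2 change -0.33 ± 0.08, adjusted p = 0.00383).

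**Figure D2:**
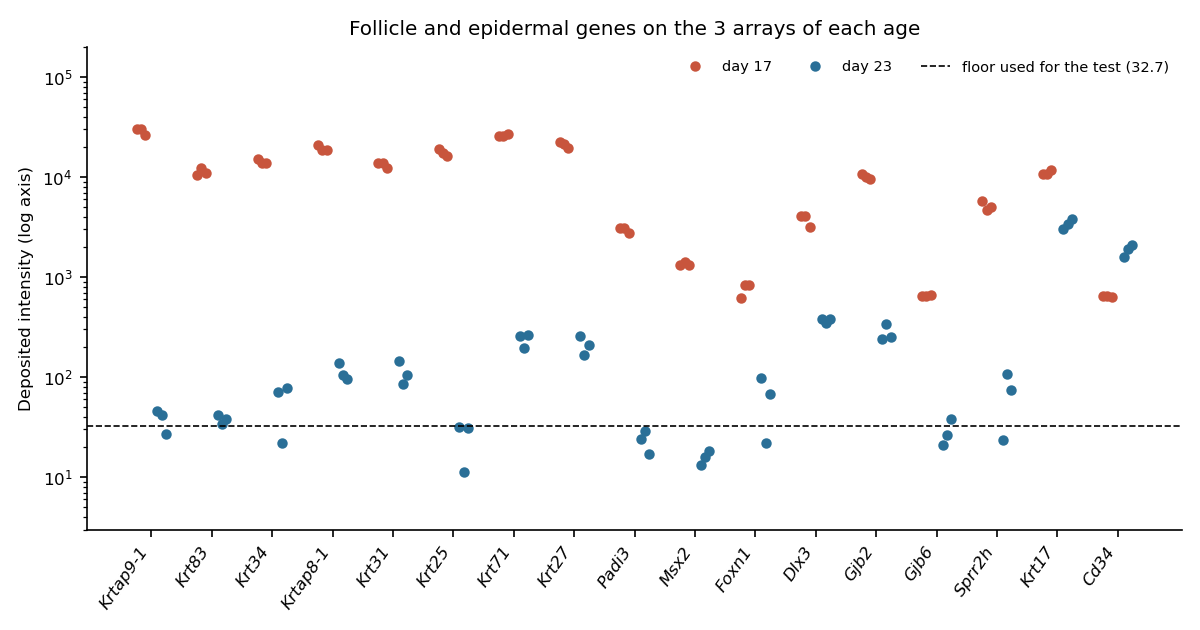
Deposited intensity (log axis) of 17 genes on the 3 arrays of day 17 and the 3 arrays of day 23, each point 1 array, with the floor of 32.7 units dashed. In 16 genes every day 17 array lies above every day 23 array, and Cd34 runs the other way, with 627 to 652.8 units on day 17 and 1601 to 2102 on day 23.

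Another 3 genes shared the size of this fall. Crym, a ketimine reductase that also binds thyroid hormone, had 4192, 4059 and 4123 units on day 17 and 14.4, 4.6 and 10.1 on day 23, at least 126-fold lower. Gm10228 and Gm10229, predicted genes, had log2 changes of -8.24 ± 0.2 and -7.45 ± 0.12. Gm10228 had 40.2, 22.8 and 25 units on day 23, in part below the floor of 32.7 units, so the size of its change depends on that floor.

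The outer root sheath and bulge, which hold the follicle's long-lived cells, gave calls both ways: 10 of 19 genes tested fell and 3 rose (15.8% higher and 52.6% lower), and 3 rose and 6 fell with the sex-marker covariate. Krt16, a keratin of the outer sheath and of activated epidermis, went from 878.2, 1053 and 1170 units to 74.9, 112.8 and 82.8 (log2 change -3.53 ± 0.23). Krt17 fell from 10706, 10675 and 11835 units to 3005, 3440 and 3828. Cd34, a surface marker of the bulge that endothelium and fibroblasts carry too, measured 644.5, 652.8 and 627 units on day 17 and 1601, 1894 and 2102 on day 23, a rise of 1.53 ± 0.12. Lgr5, a marker of the lower bulge and germ, had 129.3, 242.2 and 320.5 units and then 18.5, 31.1 and 82.3. Lgr5 thus spread widely within each age without overlap between them (log2 change -2.28 ± 0.54, adjusted p = 0.00309). Runx1, expressed in bulge and shaft-forming cells, fell by 2.26 ± 0.33.

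Of 14 transcription factors of the follicle, 12 fell, 1 rose and 1 did not pass, with a median log2 change of -1.32 (7.14% higher and 85.7% lower). With that sex-marker covariate 9 fell. Msx2, a homeobox factor of matrix and shaft cells, had 1314, 1426 and 1327 units on day 17 and 13.1, 15.8 and 18.4 on day 23, at least 41.4-fold lower. Foxn1, the factor lost in nude mice and needed for shaft differentiation, went from 624.5, 832.6 and 835.3 units to 99.2, 22 and 68.3. Dlx3, which acts upstream of shaft keratins, fell from 4101, 4118 and 3209 units to 385.7, 352.1 and 383.1 (log2 change -3.34 ± 0.09). Each of these factors was lower on all 3 arrays of day 23 than on any array of day 17. Dlx2 fell by 2.38 ± 0.19. Alx4, a homeobox factor of the dermis, was the member that rose, by 0.96 ± 0.29 (adjusted p = 0.0139), and without mouse 1 or mouse 2 of day 23 its change was 0.83 or 0.81 and did not pass (adjusted p = 0.0579 and 0.0612).

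Of 15 cell contact genes tested 13 fell (86.7%, against 21.9% of all genes), with a median of -1.03, and 11 fell with the sex-marker covariate. Gjb2, the gap junction protein connexin 26, had 10704, 9950 and 9563 units on day 17 and 239.6, 337.8 and 250 on day 23. Gjb6, connexin 30, went from 652.4, 642.1 and 657.4 units to 21, 26.6 and 38. These connexins had log2 changes of -5.21 ± 0.11 and -4.24 ± 0.15. Dsc2, a desmosomal cadherin, fell by 3.06 ± 0.2, and Cldn3, a claudin of tight junctions, by 1.4 ± 0.19. Gjb5, the 1 member called higher, was not called when any single array of either age was left out.

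Of 30 genes of terminal differentiation, 15 fell and 9 rose (30% higher and 50% lower), and 11 fell and 7 rose with the sex-marker covariate. Krt1, the type II keratin of the suprabasal epidermis, rose from 1384, 1913 and 1582 units to 4313, 6104 and 6897 (log2 change 1.81 ± 0.15). Its partner Krt10 measured 12441, 12200 and 12549 units and then 18006, 16999 and 15753, and loricrin, Lor, 8874, 7722 and 8916 units and then 11108, 10855 and 10997. These changes of 0.45 ± 0.1 and 0.37 ± 0.1 were smaller than that of Krt1 but no array overlapped. Small proline-rich proteins, cross-linked into the cornified envelope, fell in 8 of 12 cases and rose in 1, where 21.9% of all genes fell. Sprr1a went from 33481, 32593 and 29583 units to 3034, 2949 and 2614, and Sprr2h from 5728, 4688 and 5050 to 23.3, 107.6 and 75.1. Involucrin, Ivl, another envelope protein, fell by 1.89 ± 0.16, and Tgm3, a transglutaminase of shaft and epidermis, by 2.78 ± 0.17. In basal keratinocyte genes, 6 of 16 rose and 5 fell (37.5% and 31.2%, all genes 23.5% and 21.9%), and 2 and 3 with the sex-marker covariate. Sfn, 14-3-3 sigma, fell from 11487 to 13195 units to 2768 to 3143, while Itga6, the hemidesmosomal integrin chain, rose from 307.1 to 341.2 units to 534.4 to 800.8.

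Wnt pathway genes held more falls than rises. Of 36 tested, of 40 on the array, 18 fell and 1 rose (2.78% higher and 50% lower), and the median log2 change was -0.44. With the sex-marker covariate 5 fell and 0 rose. Among 11 ligands 6 fell and 0 rose, where 21.9% of all genes fell. Wnt11 had 373.1, 352.5 and 368.1 units on day 17 and 21.2, 28 and 14 on day 23, at least 11.1-fold lower. Wnt5a, a ligand of the follicle's dermal and sheath cells, went from 291.5, 208.5 and 203.7 units to 103.3, 102.6 and 103.9. Neither overlapped between the ages. Wnt5b fell by 1.84 ± 0.41, Wnt3 by 0.47 ± 0.13 and Wnt4 by 0.55 ± 0.17, and the sixth, Wnt10b, was at the threshold (log2 change -0.75 ± 0.29, adjusted p = 0.0484). Without mouse 3 of day 23 Wnt10b was at -0.44 (adjusted p = 0.24), and it lost its call without any 1 of the day 17 arrays (adjusted p = 0.0793 to 0.113), without mouse 1 of day 23 (0.0651) and without 6 of the 9 younger arrays (0.0541 to 0.0584). Wnt4 lost its call without mouse 2 of day 17 and without mouse 1 of day 23 (adjusted p = 0.0772 and 0.068).

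Among 10 Wnt receptors, 6 fell and 0 rose, where 21.9% of all genes fell. Fzd1 had 571.7, 780.8 and 865 units and then 318.8, 325 and 382.9, a change of -1.09 ± 0.16, and the coreceptor Lrp5 fell by 1.61 ± 0.44. Beta-catenin, Ctnnb1, the shared effector, fell from 6708 to 7362 units to 4738 to 5322 (log2 change -0.49 ± 0.07). Lef1, the DNA-binding partner of beta-catenin in matrix and papilla, measured 1426, 1474 and 1536 units on day 17 and 679.9, 776.5 and 758.9 on day 23. Lef1 was thus lower on each day 23 array, at -1 ± 0.1 (adjusted p = 1.46e-06), and Tcf7l2 at -1.18 ± 0.14. Axin2, a feedback target of the pathway, had 168.6 to 268.3 units on day 17 and 171.8 to 207.1 on day 23, overlapping, with a log2 change of -0.12 ± 0.21 (adjusted p = 0.678). Of 5 secreted inhibitors, Sfrp2 rose, from 487, 595.7 and 401.9 units to 1119, 862.5 and 1559, and Sfrp4, at 196 to 393.7 and 467.4 to 613.6 units, did not pass (0.99 ± 0.45, adjusted p = 0.0834). Sfrp4 passed without mouse 1 or mouse 2 of day 14 (adjusted p = 0.0414 and 0.00447). The Wnt genes that rose numbered 2 without mouse 2 of day 17 or mouse 3 of day 23.

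Of 37 genes of BMP, TGF-beta and activin signalling, 14 fell and 4 rose (10.8% higher and 37.8% lower), with a median of -0.29. Under the sex-marker covariate 6 fell and 2 rose. Genes with Bmp or Gdf names, ligands apart from the protease Bmp1, fell in 4 of 7 cases, where 21.9% of all genes fell. Bmp7 had 1133, 1296 and 1193 units on day 17 and 502.3, 428.7 and 429.9 on day 23, Bmp2 349, 251 and 379.9 and then 139.7, 134.3 and 115.8, and Bmp4 993.5, 907 and 890.8 and then 486.9, 525.7 and 527.7. Each was lower on every day 23 array, by 1.41 ± 0.14, 1.31 ± 0.23 and 0.86 ± 0.13, and Bmp8a fell by 1.88 ± 0.21. The receptor Bmpr1a fell by 1.08 ± 0.19. Smad6 and Smad7, inhibitory Smads induced by these ligands, went from 1026 to 1042 units to 208.3 to 305.4 and from 719.1 to 853.1 units to 267.8 to 384.4. Follistatin, Fst, which binds activins and some BMPs, rose by 0.82 ± 0.16. Tgfb3 rose from 582.1, 608.8 and 645.9 units to 994.1, 1067 and 913.6, whereas Tgfb1 at 59.9 to 196 and 23.4 to 119 units and Tgfb2 at 90.4 to 197 and 182.5 to 291.3 units overlapped between the ages and did not pass. Without mouse 3 of day 17 Tgfb1 passed, at -1.34 (adjusted p = 0.0487). Ltbp1, which binds latent TGF-beta to the matrix, was below the floor on all day 17 arrays (24.8, 31.9 and 29.2 units) and had 229.5, 215.6 and 143.6 units on day 23, at least 5.88-fold higher.

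Of 35 growth factors and receptors 12 rose and 9 fell (34.3% and 25.7%, all genes 23.5% and 21.9%). With that sex-marker covariate 2 rose and 3 fell. The EGF family divided: Egf rose from 29.4, 106.4 and 51.8 units to 342.8, 350 and 314 (log2 change 2.57 ± 0.54), while Tgfa fell from 614.8, 589.5 and 692.1 units to 152.9, 147.3 and 176.9, and Hbegf by 1.3 ± 0.17. Their receptor Egfr fell by 0.87 ± 0.13. Igf1, a growth factor made by dermal cells, went from 2161, 2221 and 2283 units to 1199, 1179 and 916.4, but its other probe set was called higher. Igfbp6 and Igfbp3, which bind insulin-like growth factors, rose by 1.1 ± 0.15 and 0.94 ± 0.14. Kitl, the stem cell factor used by pigment and mast cells, rose from 322.5, 308.8 and 284.4 units to 602.4, 612.1 and 663.2, and Vegfa, the angiogenic factor, by 1.05 ± 0.27. Edn1, endothelin 1, fell by 1.1 ± 0.19. Pth1r, the receptor of parathyroid hormone related protein, had 158.4 to 174.8 units on day 17 and 347 to 527.5 on day 23.

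Of 21 Hedgehog and Notch genes 5 fell and 1 rose (4.76% higher and 23.8% lower, all genes 23.5% and 21.9%), with a median of -0.1. Shh, the ligand made by growing follicles, had 256.4, 200.3 and 443 units on day 17 and 32.4, 109.6 and 105.4 on day 23, a log2 change of -1.97 ± 0.37. Ihh, known for sebaceous glands in skin, went from 259.9 to 287.5 units to 131.4 to 155.6. The receptor Ptch1, itself a target of the pathway, measured 403.2 to 506.6 and 400.2 to 485.8 units and did not pass (-0.05 ± 0.13, adjusted p = 0.793). Gli1, the other usual target, was the member that rose (0.62 ± 0.22, adjusted p = 0.0326), a call lost without any 1 of the 6 arrays other than mouse 2 of day 17 (adjusted p = 0.0578 to 0.106). With the sex-marker covariate 0 rose and 0 fell. Smo fell by 0.48 ± 0.13, Gli3 by 0.99 ± 0.22 and Notch1 by 0.56 ± 0.11.

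Of 10 genes linked to regression, 5 fell (50%, all genes 21.9%) and 0 rose, and 2 fell with the sex-marker covariate. Vdr, the vitamin D receptor, had 700.8, 759.2 and 680.4 units on day 17 and 269, 246.7 and 390 on day 23. Hairless, Hr, a corepressor needed to complete the first regression, measured 3464, 3071 and 4778 units and then 1935, 1116 and 2045. Ctsl, the lysosomal protease cathepsin L, fell from 7176, 6794 and 6704 units to 2977, 2515 and 2942. Vdr, Hr and Ctsl were thus higher on every day 17 array, by 1.27 ± 0.18, 1.17 ± 0.22 and 1.3 ± 0.1 on the log2 scale. Rxra, the partner of Vdr, fell by 0.68 ± 0.13 and the survival factor Bcl2 by 0.92 ± 0.18. Stat3, at 1496 to 1749 and 1580 to 1900 units, did not pass (0.08 ± 0.11, adjusted p = 0.584).

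Of 32 apoptosis genes 9 fell and 6 rose, shares near those of all genes (18.8% higher and 28.1% lower, all genes 23.5% and 21.9%), with a median of 0.01. Under the sex-marker covariate 3 fell and 0 rose. Clu, the chaperone clusterin, went from 3715, 3846 and 3223 units to 918.3, 930.6 and 703.3 (log2 change -2.09 ± 0.12). Tradd, an adaptor of the TNF receptor, fell by 1.98 ± 0.54 and Gadd45a, induced by growth arrest, by 1.17 ± 0.21. Bnip3, a BH3 protein of hypoxia and mitophagy, rose from 412.2, 310.4 and 437.1 units to 1042, 688.6 and 964.9. Without mouse 3 of day 17 the number of apoptosis genes that rose was 3.

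Among genes of cell division 15 of 75 fell and 9 rose, shares of 20% and 12% (all genes 21.9% and 23.5%). Mki67, the proliferation marker, had 440.9, 368.3 and 431.3 units on day 17 and 192.4, 176.9 and 237.8 on day 23, a fall of 1.04 ± 0.2 (adjusted p = 6.71e-04). Ccnb2, a cyclin of mitosis, went from 1281, 1324 and 1251 units to 667.1, 797.8 and 681.8. Both were lower on each array of day 23. Dut had the largest called change, at -1.55. Among the genes that rose were Prim1, Mcm3 and Pcna, by 0.84, 0.69 and 0.63, while Top2a did not pass (-0.04). Dut lost its call without mouse 2 of day 17 or mouse 1 or 2 of day 23 (adjusted p = 0.122, 0.0725 and 0.0686). Prim1 lost its call without mouse 3 of day 17 or mouse 2 or 3 of day 23 (adjusted p = 0.145, 0.156 and 0.0645). The number that rose depended on single arrays: it was 16 without mouse 1 of day 23, 3 without mouse 2 of day 23 and 5 without mouse 3 of either age, and 17 with arrays centred on their medians. With that sex-marker covariate 0 rose and 3 fell.

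Of 12 pigment cell genes 5 fell (41.7%, all genes 21.9%) and 0 rose, and 3 fell with the sex-marker covariate. Mitf, the master transcription factor of melanocytes, had 295.5, 258.5 and 273 units on day 17 and 116.1, 60.8 and 50 on day 23. Pmel, the fibril protein of melanosomes, went from 780, 989.2 and 762.2 units to 423.2, 362.9 and 405.5, and Mc1r, the receptor of melanocortin, fell by 1.15 ± 0.19. The enzymes of pigment synthesis did not pass. Dct measured 940.5 to 1060 and 897.7 to 989.1 units, overlapping (-0.09 ± 0.13, adjusted p = 0.618), and Tyrp1 378.3 to 448.8 and 270.8 to 330.7 units (-0.48 ± 0.2, adjusted p = 0.0605). Tyr had a change of -0.74 ± 0.3 (adjusted p = 0.0573). Tyr passed without mouse 2 of day 17 or mouse 1 or 3 of day 23 (adjusted p = 0.0343, 0.0422 and 0.0441), and Tyrp1 without mouse 1 or 2 of day 6 (0.0134 and 0.0447).

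**Figure D3:**
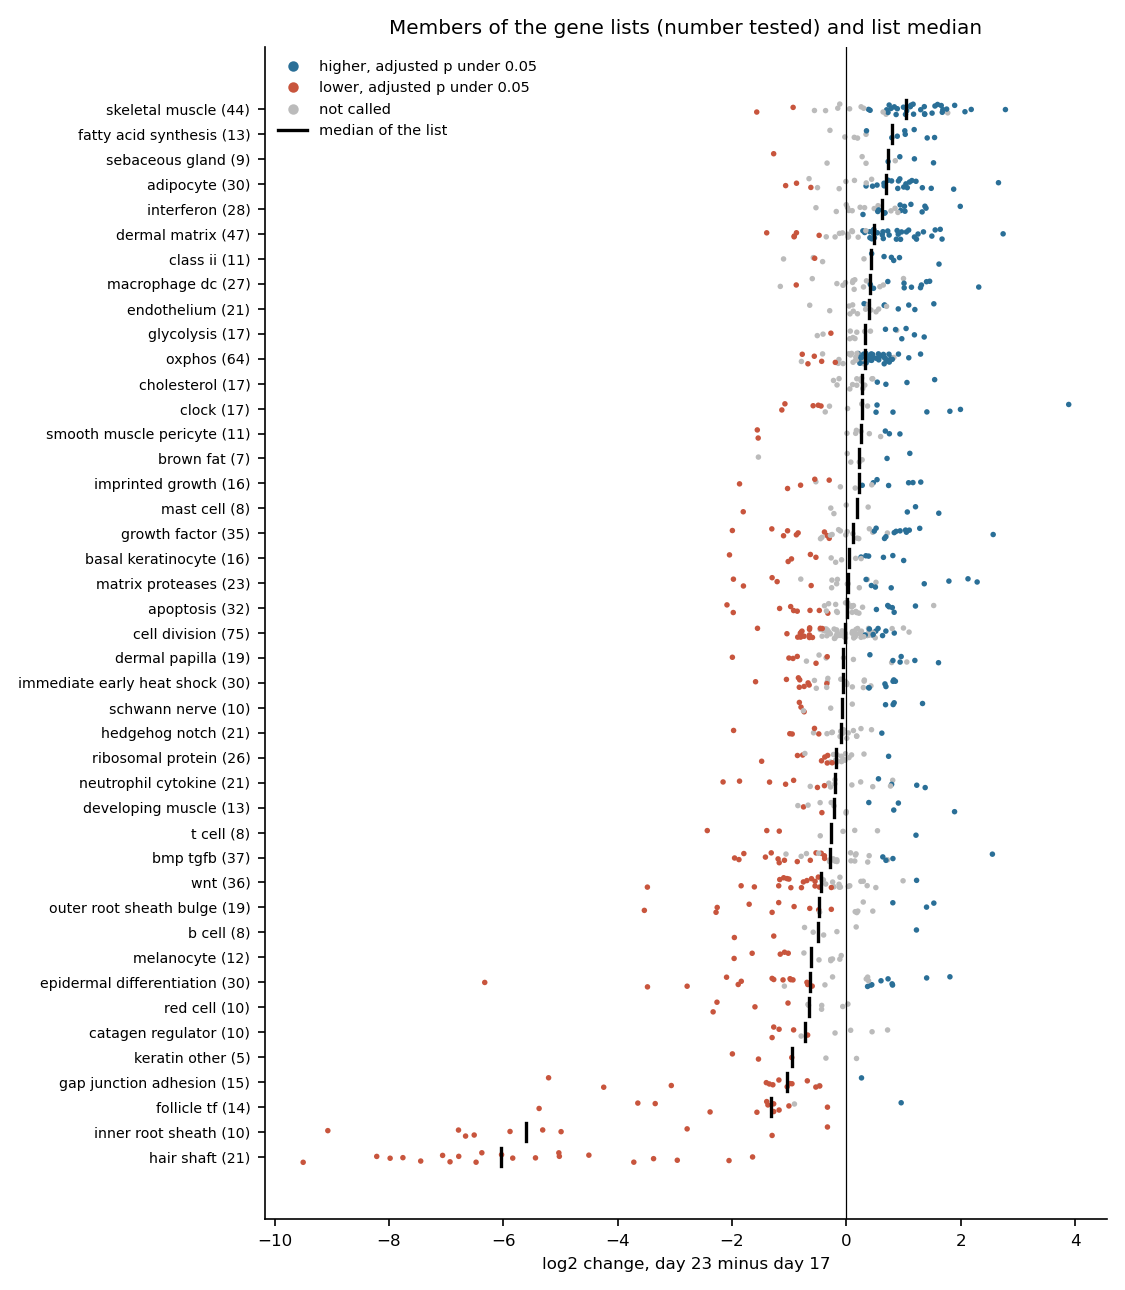
Log2 change from day 17 to day 23 (horizontal axis) of the members of 43 gene lists, each point 1 gene, with the number tested in brackets and the list median as a bar. Medians run from 1.05 for skeletal muscle to -6.03 for the hair shaft, and most lists hold called genes on both sides of 0.

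Of 47 dermal matrix genes 31 rose and 5 fell, where 23.5% of all genes rose and 21.9% fell, with a median of 0.48. With the sex-marker covariate 18 rose and 3 fell. Fmod, the collagen-binding proteoglycan fibromodulin, went from 84.3, 181 and 81.8 units to 579.9, 815.7 and 792 (log2 change 2.74 ± 0.44). Lox, the enzyme that cross-links collagen, had 491, 375 and 445 units on day 17 and 1204, 1436 and 1543 on day 23. Lumican, Lum, rose from 2044, 1860 and 1956 units to 5761, 6130 and 6419. Each of these matrix genes was higher on every array of day 23 than on any array of day 17. When the probe sets of Lox were averaged it lost its call and its change moved by over 1.5 times. Ogn, osteoglycin, rose by 1.56 ± 0.15 and decorin, Dcn, by 0.48 ± 0.08. Of 15 collagen chains 9 rose and 1 fell. Col3a1 rose by 0.48 ± 0.08 and Col1a2 by 0.32 ± 0.1. Col1a1, the most abundant of the markers, had 24525 to 28414 units on day 17 and 22034 to 25990 on day 23 and did not pass (-0.12 ± 0.12, adjusted p = 0.433), and under quantile normalisation it was higher (0.42, adjusted p = 1.54e-04). Col1a2 did not pass without mouse 2 or 3 of day 17 or without mouse 1 or 2 of day 23 (adjusted p = 0.0547 to 0.082), and its second probe set was called lower.

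Of 23 matrix proteases 8 rose and 5 fell (34.8% and 21.7%, all genes 23.5% and 21.9%), and 4 and 3 with the sex-marker covariate. Mmp3, stromelysin 1, went from 379.1, 267.1 and 363.7 units to 1455, 1269 and 1669. Mmp9, gelatinase B, had 32.4, 35.1 and 35.1 units on day 17, at or near the floor, and 214.2, 97.5 and 225.1 on day 23. Mmp11, stromelysin 3, ran the other way, from 443.1, 328.2 and 491.5 units to 93.7, 139.7 and 90.1, as did urokinase, Plau, from 341.4 to 409.4 units to 85.6 to 127.4. The log2 changes were 2.13 ± 0.33, 2.29 ± 0.35, -1.97 ± 0.3 and -1.8 ± 0.26.

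Genes of the dermal papilla, the mesenchymal cluster that instructs the follicle, gave 6 of 19 higher and 6 lower (31.6% each, all genes 23.5% and 21.9%), and 3 each with the sex-marker covariate. Corin, a papilla protease, had 144.4, 88.5 and 188.5 units on day 17 and 13.4, 35.8 and 22 on day 23 (log2 change -1.99 ± 0.3). Crabp1, a retinoic acid binding protein, rose from 105.2, 94.5 and 92.6 units to 234, 375.4 and 300, and Sox18 from 315.9, 320.5 and 295.1 units to 693.9, 645.6 and 807.9. Sox18 is also a factor of endothelium.

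Of 30 adipocyte genes 20 rose and 3 fell (66.7% and 10%, all genes 23.5% and 21.9%), with a median of 0.7. Under the sex-marker covariate 10 rose and 1 fell. Retn, the adipokine resistin, went from 762.1, 719.4 and 848.4 units to 2710, 3553 and 2400 (log2 change 1.88 ± 0.19). Adipoq, adiponectin, measured 3348, 3303 and 3935 units and then 7743, 5927 and 6323, and Slc2a4, the insulin-regulated glucose transporter, 193, 222.2 and 184.6 units and then 598, 469.8 and 619.2. In all 3 the ages did not overlap. Pcx, pyruvate carboxylase, had the largest rise of the list at 2.66 ± 0.35, and Car3, the abundant carbonic anhydrase of fat, rose by 1.33 ± 0.11. Leptin, Lep, fell instead, from 2839, 2661 and 2739 units to 1418, 1702 and 945.7 (-1.06 ± 0.31, adjusted p = 0.0129), although without mouse 3 of day 23 it did not pass (-0.82, adjusted p = 0.071). Fabp4, a fatty acid binding protein of adipocytes, fell by 0.62 ± 0.16.

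Of 13 genes of fatty acid synthesis 8 rose (61.5%, all genes 23.5%) and 0 fell, with a median of 0.8. With that sex-marker covariate 3 rose. Fasn, fatty acid synthase, had 1682, 1370 and 1735 units on day 17 and 3203, 5924 and 3997 on day 23, and Thrsp, induced with lipogenesis, 575.7, 866.5 and 765.8 units and then 1668, 3841 and 1479. Mouse 2 of day 23 was the highest in both. Acly, which supplies cytosolic acetyl-CoA, rose by 1.03 ± 0.14. Of 17 genes of cholesterol synthesis 4 rose and 0 fell, a share of 23.5% that equals that of all genes. The number was 8 without mouse 1 of day 23 and 1 with the sex-marker covariate. The largest rise was that of Msmo1, a sterol oxidase, from 464.1 to 622.6 units to 1192 to 1778 (1.55 ± 0.19). In the sebaceous gland list 4 of 9 rose and 1 fell (44.4% and 11.1%, all genes 23.5% and 21.9%), and 0 and 1 with the sex-marker covariate. Mgst1, a glutathione transferase, rose from 1434, 1166 and 1503 units to 2742, 3258 and 3348, Pparg by 0.94 ± 0.26, and Prdm1, a factor of gland and sheath cells, fell by 1.27 ± 0.15.

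Skeletal muscle of the panniculus carnosus, the sheet beneath the skin, is part of whole skin. Of its 44 genes tested 31 rose and 2 fell (70.5% and 4.55%, all genes 23.5% and 21.9%), and 24 and 0 with the sex-marker covariate, with a median of 1.05, the highest of the lists. Csrp3, a protein of the Z-disc, went from 187.4, 137.3 and 179.3 units to 1134, 1165 and 1140 (log2 change 2.78 ± 0.42). Pgam2, the muscle phosphoglycerate mutase, had 798.4, 763.4 and 876.6 units and then 4343, 2852 and 4061, and Pygm, muscle glycogen phosphorylase, 1173, 1276 and 1339 units and then 6017, 4347 and 5741. Tnnt3, the fast troponin T, rose from 2830, 2509 and 2507 units to 9614, 7713 and 8053. Mouse 2 of day 23 was the lowest of its age in Pgam2, Pygm and Tnnt3 and still lay above all of day 17. Actn3, the alpha-actinin of fast fibres, rose by 1.9 ± 0.17. The thin filament actin Acta1 changed by 0.39 ± 0.13, and Mylpf did not pass (0.3 ± 0.13, adjusted p = 0.0663) except without mouse 3 of day 23 (0.0385). Acta1 lost its call without mouse 2 of day 17 or mouse 1 of day 23 (adjusted p = 0.0841 and 0.0969).

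The slow-fibre troponin T, Tnnt1, fell, from 1296, 1393 and 1421 units to 814.6, 393.8 and 308.1 (-1.57 ± 0.27), and the slow troponin I, Tnni1, passed (-0.93 ± 0.32, adjusted p = 0.0283) although its arrays overlapped between the ages (483.3 to 803.6 and 179.8 to 611.3 units). Tnni1 lost its call without mouse 2 or 3 of either age (adjusted p = 0.0568 to 0.164). Mef2c, a transcription factor of muscle, rose from 119.1, 202.5 and 209.4 units to 693.2, 651.1 and 574.3 on all 4 of its probe sets. Smyd1, a muscle methyltransferase, was higher by 3.01 ± 0.47 on the brighter of its probe sets and was called lower on the other, so its direction is not settled. Pkia, the inhibitor of protein kinase A, rose from 124.7, 129.2 and 178.1 units to 1631, 1126 and 1532, and Pdlim3, a Z-disc protein, from 280.7 to 310.6 units to 1648 to 1791. Of 11 genes of smooth muscle and pericytes, 3 rose and 2 fell, shares near those of all genes (27.3% and 18.2%, all genes 23.5% and 21.9%). With the sex-marker covariate 1 rose and 2 fell. Acta2 rose by 0.75 ± 0.16 and Myh11 by 0.94 ± 0.22, and Tpm1, a tropomyosin of many cells, fell from 4502 to 4739 units to 1536 to 1636.

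**Figure D4:**
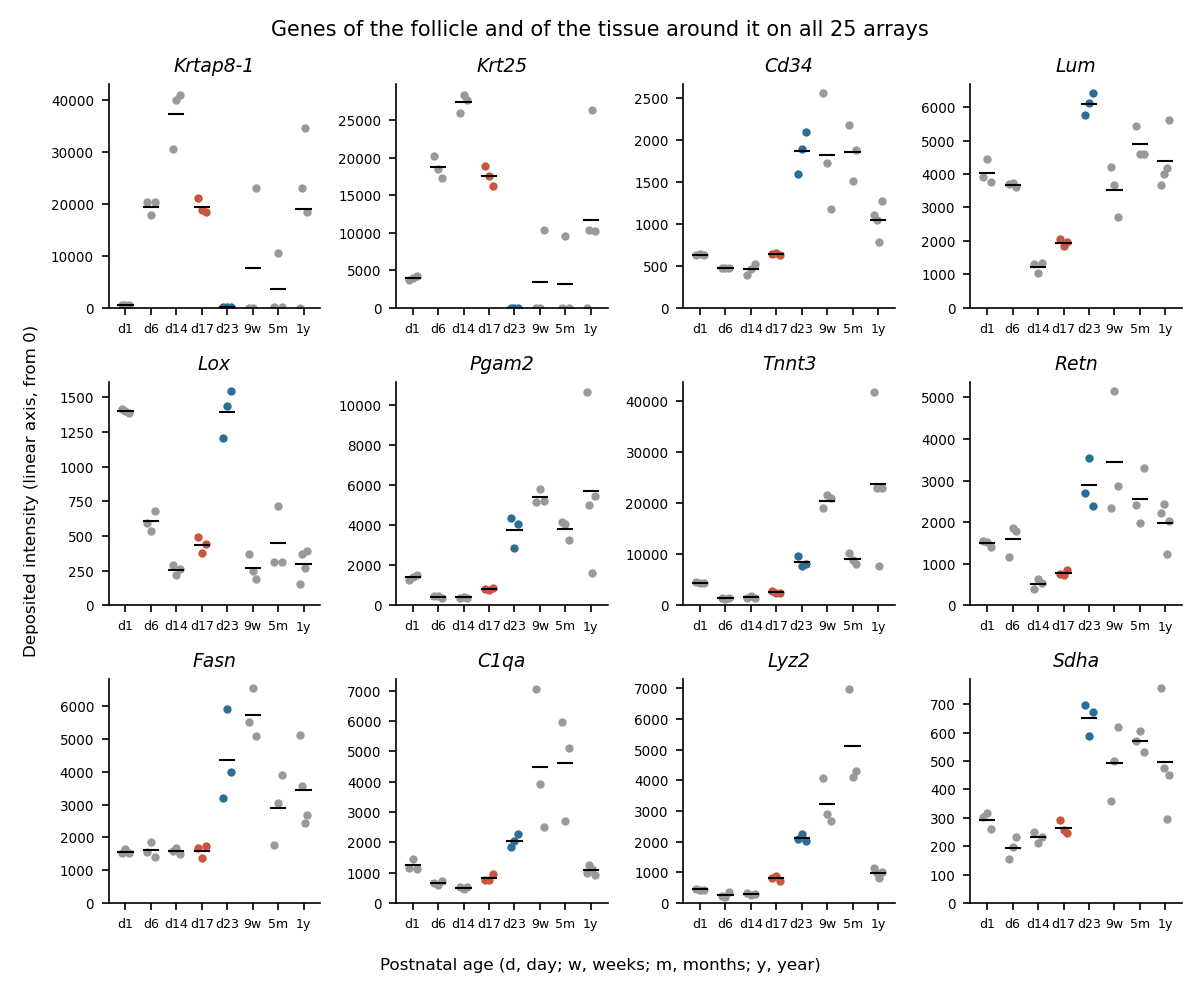
Deposited intensity (linear axis from 0) of 12 genes on all 25 arrays by age, each point 1 array, with age means as bars, day 17 in red and day 23 in blue. Krtap8-1 and Krt25 drop to near 0 on day 23, while Lum and Sdha have their highest age mean on day 23 and Pgam2, Tnnt3, Fasn and Lyz2 reach higher means at later ages.

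The other ages give these levels a scale. Krt25 had age means of 18718 units on day 6 and 27386 on day 14, and 3465 at 9 weeks, where mice differed widely. Lum had its highest age mean on day 23, 6103 units against 1234 to 4886 at the other ages, and Lox on day 23 (1394 units) and day 1 (1399 units) was high above the means of day 6 to day 17 and of adult skin, which did not exceed 605.6 units. Tnnt3, by contrast, went on to 20479 units at 9 weeks. These are descriptions of age means, with no test.

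Of 27 genes of macrophages and dendritic cells 11 rose and 1 fell (40.7% and 3.7%, all genes 23.5% and 21.9%), and 4 and 0 with the sex-marker covariate. Lyz2, the lysozyme of macrophages, had 807.8, 864.8 and 730 units on day 17 and 2096, 2243 and 2007 on day 23 (log2 change 1.4 ± 0.17), and C1qa, a chain of complement C1q, 769.6, 759.2 and 948.6 units and then 1850, 2026 and 2274. Mrc1, the mannose receptor, went from 246.3, 246.3 and 233.8 units to 653.9, 541.1 and 831.5, and Cd53, a tetraspanin of leukocytes, from 67.1 to 165.4 units to 452.7 to 791.8. All 4 were higher on every array of day 23. Among the defining markers, Csf1r rose by 0.48 ± 0.1, while Cd68 measured 479.1 to 575.1 and 514 to 603.2 units and overlapped (0.12 ± 0.14, adjusted p = 0.514). Adgre1 did not pass (1 ± 0.55, adjusted p = 0.155). In a list of 11 genes of MHC class II and Langerhans cells 6 rose (54.5%, all genes 23.5%) and 0 with the sex-marker covariate, and the member that fell is the adhesion protein Epcam. H2-Ab1 stood at 1169, 1086 and 1209 units and then 2345, 1944 and 1890, and H2-Aa at 1842 to 2167 and 3385 to 3682 units.

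Of 28 genes induced by interferon 15 rose (53.6%, all genes 23.5%) and 0 fell, with a median of 0.62. With the sex-marker covariate 1 rose. Ifi204 went from 216.5, 316.3 and 222.9 units to 713.3, 536.8 and 696.2 (log2 change 1.38 ± 0.2). Irgm1, a GTPase of cell-autonomous immunity, rose by 1.39 ± 0.34. Ifi35 had 195, 203.5 and 51.7 units on day 17 and 531.5, 496.5 and 490.9 on day 23, and without mouse 3 of day 17 its change of 1.34 did not pass (adjusted p = 0.104). Of 9 genes of class I MHC, beta-2 microglobulin and peptide loading 6 rose and 0 fell.

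Of 8 T cell genes 3 fell and 1 rose (37.5% lower and 12.5% higher). Of 8 B cell genes 2 fell and 1 rose (25% lower and 12.5% higher). Of all genes 21.9% fell and 23.5% rose. Under the sex-marker covariate the counts were 1 and 1 for T cells and 0 and 0 for B cells. The defining T cell markers Cd3d, Cd3e and Cd3g did not exceed 220.3 units on the 6 arrays, and their ranges did not fall. Cd3d had 32.2 to 46 units on day 17 and 38.5 to 84.1 on day 23. Cd3e had 88.2 to 166.4 and then 128 to 220.3 units, and Cd3g 15.2 to 58.7 and then 90.6 to 119.1. The T cell genes that fell were the kinase Zap70, at 901.6 to 942.9 and 155.2 to 191 units, whose other probe set was called higher, the coreceptor Cd4 (-1.39 ± 0.49) and the cytokine receptor chain Il2rb (-1.17 ± 0.29). Cd4 lost its call without mouse 1 or 3 of either age (adjusted p = 0.0833 to 0.131). Of B cell genes the factor Pax5 fell by 1.96 ± 0.58 (adjusted p = 0.0584 without mouse 3 of day 23) and the surface protein Ms4a1 by 1.27 ± 0.31. Ms4a1 lost its call when its probe sets were averaged. Cd72 was the B cell gene that rose, by 1.23, a call lost without mouse 2 of day 17 or of day 23 (adjusted p = 0.0933 and 0.0681). The defining B cell markers overlapped between the ages and did not pass. Cd79a had 247.4 to 378.7 and then 103.9 to 331.6 units, and Cd79b 46.6 to 207.9 and then 29.4 to 161.8. The T cell gene that rose was Thy1, which dermal fibroblasts carry too, from 1332, 1258 and 1199 units to 2846, 3104 and 2869. Of 8 mast cell genes 3 rose and 1 fell (37.5% and 12.5%, all genes 23.5% and 21.9%), and 2 and 0 with the sex-marker covariate. Cma1, mast cell chymase, had 1044, 1031 and 1130 units and then 2551, 2200 and 1996. Cpa3, mast cell carboxypeptidase, had 419.4 to 550.7 and 1048 to 1265 units, and Hdc rose by 1.62. Mcpt1 had the largest change of the list, a fall of 1.8, and lost its call with the floor at the 40th percentile. Tpsb2, Kit and Gata2 did not pass, at -0.22, -0.27 and 0.38. Among 21 neutrophil and cytokine genes 7 fell and 4 rose (19% higher and 33.3% lower, all genes 23.5% and 21.9%), and 3 and 0 with the sex-marker covariate. S100a8, a calcium-binding protein of neutrophils and of activated keratinocytes, went from 730.5, 715.2 and 781.6 units to 245.6, 181.1 and 189.2, Cxcl14, a chemokine of epithelium, fell by 1.34 ± 0.18, and Ccl9, a chemokine of myeloid cells, rose by 1.38 ± 0.18. The number of these that rose was 2 without mouse 3 of day 17 or without mouse 2 of day 23.

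Of 21 vessel genes 7 rose (33.3%, all genes 23.5%) and 0 fell, and 3 rose with the sex-marker covariate. Defining markers did not pass. Pecam1 had 329.6 to 568.4 and 404.9 to 529.5 units (0.05 ± 0.3, adjusted p = 0.908), Tie1 changed by 0.07 ± 0.24 (adjusted p = 0.847) and Cdh5 by 0.35 ± 0.14 (adjusted p = 0.0578). Without mouse 2 of day 23 Cdh5 passed, at 0.47 (adjusted p = 0.0201). Emcn, endomucin of capillaries and veins, rose from 170.2, 208.4 and 164.5 units to 399.8, 351.8 and 402.9, and Lyve1, the hyaluronan receptor of lymphatic vessels and some macrophages, from 129.7 to 173.2 units to 255.7 to 315.7. In the list of Schwann cells and nerve 4 of 10 rose and 3 fell (40% and 30%, all genes 23.5% and 21.9%). With the sex-marker covariate the counts were 2 and 0. Pmp22, a myelin protein that fibroblasts also make, had 1571, 1605 and 1760 units and then 4358, 4035 and 4042. Mbp and Apod also rose, by 0.84 and 0.82, while Gfap fell by 0.82. Gfap lost its call without mouse 3 of day 17 or mouse 3 of day 23 (adjusted p = 0.0732 and 0.103). The nerve genes that fell numbered 1 without mouse 3 of either age. Of 10 red cell genes 4 fell (40%, all genes 21.9%) and 0 rose, and 1 fell with the sex-marker covariate. Car2 went from 549.3, 615.6 and 441.1 units to 104.6, 119.3 and 94.3, while the globin Hba-a1, at 5302 to 6307 and 5393 to 7226 units, overlapped between the ages and did not pass (0.03 ± 0.19, adjusted p = 0.914).

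Of 64 genes of oxidative phosphorylation 39 rose and 5 fell (60.9% and 7.81%, all genes 23.5% and 21.9%), by small amounts: the median was 0.32 and the largest 1.3. All 4 genes of complex II tested rose, 7 of 8 of complex III, 18 of 28 of complex I, 6 of 13 of ATP synthase and 3 of 8 of complex IV. Sdha, the flavoprotein of complex II, had 293.9, 258.3 and 244.8 units on day 17 and 697.9, 589.3 and 673.6 on day 23 (1.3 ± 0.17). Ndufv3, a subunit of complex I, rose from 425.2, 455.9 and 370.3 units to 868.6, 781.1 and 1027. The genes that fell numbered 0 without mouse 3 of either age and 1 to 3 without any 1 of the other 4 arrays of these ages. With that sex-marker covariate 9 rose and 0 fell. In glycolysis 6 of 17 rose and 1 fell (35.3% and 5.88%), and 6 and 0 with the sex-marker covariate, with Ldha, lactate dehydrogenase A, at 5332, 5317 and 5303 units and then 13314, 11989 and 11229, and Pfkm, the muscle phosphofructokinase, at 1285 to 1422 and 2450 to 4338 units. The skeletal muscle list moved the same way, with a summed intensity of 97222 to 105052 units on day 17 and 177833 to 223322 on day 23, and its part in these changes was not tested.

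The circadian clock held the largest fitted rise. Clock and Arntl form a transcription factor that drives Per, Cry, Nr1d and Dbp genes, whose products repress it or pass the rhythm on, so that Arntl and Dbp peak at opposite hours. Of 17 clock genes tested 7 rose and 5 fell (41.2% and 29.4%, all genes 23.5% and 21.9%), and 4 and 0 with the sex-marker covariate. Dbp, a bZIP factor of clock output, had 7.6, 34.2 and 23.8 units on day 17, where 2 arrays were below the floor, and 469.3, 443.8 and 572.8 on day 23 (log2 change 3.89 ± 0.27, adjusted p = 2.36e-08). Nr1d2, a repressor of Arntl, went from 325.9, 372.2 and 345.2 units to 1241, 1180 and 1239, and its relative Nr1d1 from 423.8, 465.8 and 486.1 units to 821.1, 787 and 811.7. The ages did not overlap in any of these genes. Per2, a repressor of Clock and Arntl with 2 day 17 arrays below the floor, rose from 52.9, 29.7 and 32.2 units to 131.7, 158.8 and 172, and Tef, a bZIP factor related to Dbp, from 804.2, 1019 and 913.9 units to 2536, 2305 and 2402.

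The genes that fell included Arntl, at 677.2, 715.6 and 652.1 units and then 340.4, 307.2 and 324.5 (-1.07 ± 0.18), and Nfil3, a bZIP repressor that opposes Dbp, at 533.4, 457.7 and 570.5 units and then 248.9, 256 and 209.8 (-1.13 ± 0.21). Neither overlapped between the ages. Cry1 fell by 0.44 ± 0.09, Csnk1d, a kinase of Per proteins, by 0.49 ± 0.13 and Csnk1e by 0.58 ± 0.16 (adjusted p = 0.0501 without mouse 2 of day 23). Rora and Bhlhe40 rose by 0.54 ± 0.18 and 0.52 ± 0.16, calls that were lost without mouse 3 of day 23 (adjusted p = 0.134 and 0.083), without mouse 2 of day 17 for Rora (0.13) and without mouse 3 of day 17 for Bhlhe40 (0.0714). Per1, Per3, Cry2, Clock and Timeless did not pass, with changes of 0.37, -0.37, -0.29, 0.27 and 0.02, although Per1 passed without mouse 3 of day 1 (adjusted p = 0.0471). The hour of sampling and age cannot be told apart here. In the adult arrays Dbp had age means of 278.7 units at 9 weeks, 718.8 at 5 months and 204.2 at 1 year, and 16.5 to 22.9 at days 1, 6 and 14.

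**Figure D5:**
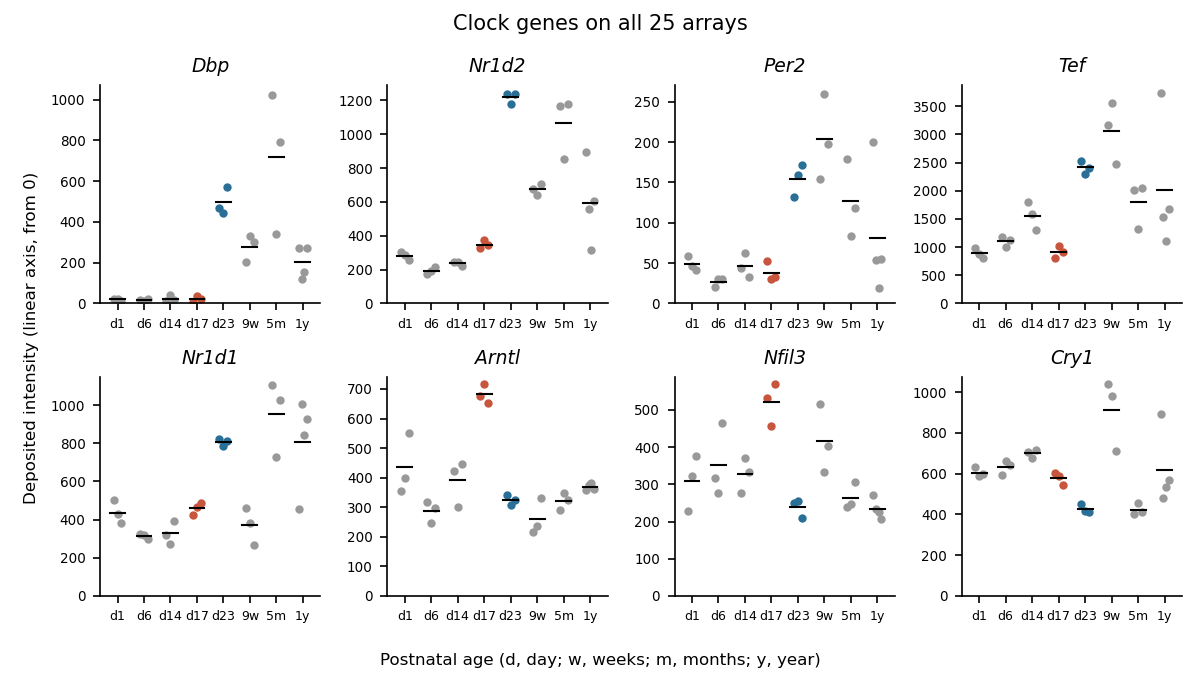
Deposited intensity (linear axis from 0) of 8 clock genes on all 25 arrays by age, each point 1 array, with age means as bars, day 17 in red and day 23 in blue. Dbp is near 0 on each array up to day 17 and at 443.8 to 572.8 units on day 23, and Arntl has its highest values, 652.1 to 715.6 units, on day 17.

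Clock promoters were searched for CACGTG, the E-box bound by Clock and Arntl, and TTATGNAA, the D-box bound by Dbp, Tef and Nfil3, on both strands. Of 14 clock genes with a window of 300 bases, 3 held CACGTG (21.4%; Cry1, Per1 and Tef) and 3 held TTATGNAA (21.4%; Per1, Per3 and Timeless), against 7.2% and 3.5% of all 27025 promoters. The windows of Dbp, which rose most, and of Tef, which rose and holds the E-box, are printed with CACGTG in capitals (RefSeq, GRCm38.p6). Dbp lies at chr7:45704997-45705296 on the plus strand and Tef at chr15:81802423-81802722 on the plus strand.
Dbp: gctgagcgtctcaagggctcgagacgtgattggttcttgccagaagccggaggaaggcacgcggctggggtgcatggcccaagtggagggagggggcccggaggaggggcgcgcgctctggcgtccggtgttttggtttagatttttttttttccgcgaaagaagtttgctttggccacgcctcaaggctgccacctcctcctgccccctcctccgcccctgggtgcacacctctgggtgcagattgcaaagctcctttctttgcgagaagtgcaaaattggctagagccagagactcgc
Tef: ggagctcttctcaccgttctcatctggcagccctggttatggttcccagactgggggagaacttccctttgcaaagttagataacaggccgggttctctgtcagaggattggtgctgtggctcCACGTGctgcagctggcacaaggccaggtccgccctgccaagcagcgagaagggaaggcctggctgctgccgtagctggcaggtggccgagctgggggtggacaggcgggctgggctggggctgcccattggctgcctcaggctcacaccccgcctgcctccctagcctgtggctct
Tef held 1 E-box, at position -127 from the annotated start, and no D-box. Dbp held neither, which says only that these letters are not in this window.

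Among the 10 largest increases, Pkia, Smyd1, Pdlim3 and Cyp2e1 were in none of the gene lists. Pkia, Smyd1 and Pdlim3 are given beside the muscle genes above and are not part of their counts. Cyp2e1, a cytochrome P450 of liver and fat, rose from 537, 613.1 and 736.7 units to 3448, 2712 and 5464 (log2 change 2.57 ± 0.22). The liver markers Alb, Apoa1 and Ttr did not exceed 233.4 units on the 6 arrays, and the highest value of each was lower on day 23 than on day 17.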

How the data were processed

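The authors deposited 1 intensity per probe set and array, on a linear scale, with a trimmed mean of 500 units on each of the 25 arrays; the sources used here do not give the scanner, software or scaling method. Gene symbols came from the platform annotation: of 12488 probe sets 66 were controls, 10855 had 1 symbol, 396 several and 1237 none. Intensities were raised to a floor at the 20th percentile (32.7 units) and put on the log2 scale. The 8835 probe sets above the 40th percentile (127.8 units) on at least 3 of 25 arrays entered a linear model in limma 3.58.1 under R 4.3.3 (lmFit, eBayes with an intensity trend), with 1 mean per age over the 15 arrays of days 1 to 23, and p-values were adjusted by Benjamini-Hochberg over all of them. Adult arrays were left out of the fit because 9-week mice differed in hair genes in earlier results of these data. The model fit was tested on simulated log2 values with known changes. The floor, the filter and the choice of 1 probe set per gene were not part of that test. Errors are standard errors of the log2 change.

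For a gene with several probe sets, the one of highest mean intensity was taken. Where every array of an age was below the floor, the fold is given as at least the other age's mean over the floor. The members and gene lists were chosen with earlier results of these data known. Named genes were drawn from the 10 largest increases and decreases among called genes whose ages do not overlap. Others came from up to 4 called members per list by size, the signal and clock lists, and the cell type markers. Not all of these are named. Ltf, H2-DMb2, Hsd3b6 and Rps13 were among those left out, each the largest called change of its list (log2 change -2.15, 1.62, 1.53 and -1.48). Gjb5, Epcam, Mcm3, Pcna, Top2a, Tpsb2, Kit and Gata2 were named after their values were seen. So were members at the ends of a range, such as Krtap13, Krt84 and Gata3. Alternatives covered normalisation, the floor, the filter, the arrays fitted, a replicate block, probe-set averaging, a covariate for arrays with both sex markers and leaving out each array; arrays of days 17 and 23 whose removal changed a call or moved a count by over 1.5 times are named beside most results.

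Promoters are RefSeq windows from 250 bases before to 50 after each start. Of 32851 windows at hand the first listed for each gene was kept, 27025 in all. Other starts of a gene were not searched. The hair motifs were chosen after seeing the data. Promoters of cell division and cholesterol genes were searched too and are not printed. The letters CCAAT stood in 43 of 64 cell division promoters (67.2%) and 13 of 14 cholesterol promoters (92.9%), against 37.9% of all. Of the cell division promoters 27 held TTTGAA (42.2%, against 18.1%) and 10 held TTTAAA (15.6%, against 13.2%), and 1 cholesterol promoter held CACCCCA (7.1%, against 7.5%). Tef was printed as the clock gene called higher that holds an E-box. Protein sequences were not used here.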

Additional observations from a re-analysis of the deposited data

How the results depend on the processing

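With a covariate for arrays that hold both sex markers the counts were 502 probe sets higher and 563 lower, against 1917 and 1927. The day 1 arrays alone set the effect of this covariate, which widens the error of the contrast. Leaving out 1 array at a time gave 1536 to 1968 higher and 1551 to 2010 lower. Mouse numbers did not pair the arrays (correlation of same-numbered deviations -0.062, 0.032 and -0.07), and a replicate block gave 1872 and 1895. Quantile normalisation gave 2170 and 1840, median centring 2206 and 1673, and the 6 arrays alone 1925 and 1964. Of all calls 56.9% were higher with median centring and 49.9% without. Fitting all 25 arrays gave 1455 and 1398. Under quantile normalisation Col1a1 was higher, at 0.42 (limma adjusted p = 1.54e-04). When a gene's probe sets were averaged, Igf1 stood at 0.06 (adjusted p = 0.803), Fgfr2 at -0.01 (0.982) and Col1a2 at -0.22 (0.0764), each opposite in sign to its brighter probe set; the probe sets of these genes differ. Of the 238 called genes among those with values extracted, 203 kept direction and call with all 25 arrays, 132 with the covariate and 222 to 238 without 1 array. Probe sets near background and the number of arrays limit what could be detected.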

Other observations

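Of 16 imprinted growth genes 7 rose and 5 fell (43.8% and 31.2%, all genes 23.5% and 21.9%), and 2 and 2 with the covariate for both sex markers. Ndn, necdin, a growth suppressor, rose from 326.5, 331.3 and 322.8 units on day 17 to 625.9, 864.9 and 968.5 on day 23 (log2 change 1.3 ± 0.14; limma adjusted p = 4.35e-06), and Phlda2, first known from placenta, fell from 263.5, 328.3 and 324.8 units to 99.5, 91.8 and 63.4 (-1.87 ± 0.24). Of 30 immediate early and heat shock genes 9 fell and 7 rose, shares near those of all genes (23.3% higher and 30% lower), and 4 and 1 with that covariate. Junb, an AP-1 subunit, went from 1276, 1516 and 1580 units to 478.2, 471.1 and 500.6, and Egr1, a zinc finger factor induced by growth factors, from 1121 to 1206 units to 525.1 to 622.3. Ccn2, a matricellular protein, rose by 0.86 ± 0.15. No array of day 23 overlapped with day 17 in these genes.

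Of 26 ribosomal protein genes 8 fell and 1 rose (30.8% lower and 3.85% higher, all genes 21.9% and 23.5%), and 0 and 0 with that covariate. Their median was -0.18, and 0.04 under quantile normalisation, and 5 fell without mouse 2 of day 17. Of 13 genes of developing muscle 4 rose and 2 fell (30.8% and 15.4%, all genes 23.5% and 21.9%), and 2 and 0 with that covariate. In this list 2 rose without mouse 1 of day 17 or any 1 of the day 23 arrays, while 0 fell without mouse 2 of day 17 and 1 without mouse 3 of day 17 or mouse 1 or 3 of day 23. Actc1, the cardiac actin also made by young muscle, rose by 0.83 ± 0.11. Simple epithelial keratins Krt18 and Krt8 were near background, with Krt18 at 136.9 to 189.3 units on day 17 and 27.9 to 60.3 on day 23. Krt8 (-1.54, adjusted p = 0.0232) lost its call without mouse 1 or 2 of day 17 or mouse 2 or 3 of day 23 (0.0511 to 0.0772). Ucp1, the uncoupling protein of brown fat, had 263, 574.8 and 715.8 units on day 17 and 187.2, 436.6 and 54.2 on day 23, overlapping, and did not pass (adjusted p = 0.115), although it did without mouse 2 of day 23 (0.035). The age means of Ucp1 in adult skin were 9.5 to 10.8 units. The brown fat list of 7 tested genes, which includes Ucp1, held 2 that rose and 0 that fell. The share that rose was 28.6%, against 23.5% of all genes, and 0 rose with that covariate. Those that rose were Cox7a1, by 1.11, and Cox8b, by 0.71. Cox7a1 lost its call without mouse 1 or 2 of day 17 or mouse 1 or 3 of day 23 (adjusted p = 0.0551 to 0.0771).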
